A study of Mus musculus with 16 samples.

Results

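The genes described here encode selenoproteins, and they are Gpx1, Gpx4, Txnrd1, Txnrd2, Selenow, Selenok, Selenot, Selenof, Selenoi and Sephs2. These 10 members were taken by name from the 46983 genes of a table of RNA-seq counts, whose Ensembl identifiers were paired with mouse symbols. The choice used no difference between groups, but it was made with earlier results of the same table known. All 10 passed the filter on low counts, as did 11 of the 14 other mouse selenoprotein genes, so that 21 of 24 were tested among 12805 genes.

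A selenoprotein contains selenocysteine, an amino acid like cysteine with selenium in place of sulfur. Selenocysteine is encoded by UGA, which elsewhere is a stop codon. To read it, the ribosome needs a stem-loop in the same mRNA (the SECIS element), the protein SECISBP2 that binds it, a dedicated tRNA, and the elongation factor EEFSEC that carries this tRNA. When selenium is scarce, UGA can be read as a stop, and selenoprotein mRNAs differ in how far they are then spared. Many of the proteins are antioxidant enzymes, and GPX4, which detoxifies lipid peroxides, is required by embryonic cells.

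The cells were 46C mouse embryonic stem cells (ESCs) of strain 129Ola with GFP at the Sox1 locus, grown in leukaemia inhibitory factor. They were transfected for 48 hr with siRNA against RAM, the activating subunit of the mRNA cap methyltransferase RNMT, or with a non-targeting control siRNA. The paper's supplement names a single RAM siRNA for these experiments. Effects of RAM loss and other effects of that siRNA therefore cannot be told apart. From every culture, RNA of the cytoplasmic extract (input) was sequenced, and so was RNA of polysomes, the pooled fractions 17 to 22 of a sucrose gradient, in which mRNAs carrying several ribosomes sediment. With 4 cultures per siRNA there were 4 groups of 4 libraries, named input Ct, input siRAM, polysome Ct and polysome siRAM, and all of them are of this single cell line, treated with cycloheximide before lysis. Input RNA was purified with Trizol and polysome RNA with phenol, chloroform and LiCl, so in any comparison of polysomes with input the fraction and the purification cannot be told apart.

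Libraries held 16647523 to 20147833 counts. Values below are CPM, the library's counts scaled to a common total and by edgeR's TMM factors, and n is 4 libraries unless stated. Ramac, which encodes RAM, had 197 to 206 counts in input Ct libraries and 46 to 58 in input siRAM libraries, and 122 to 256 against 5 to 45 in polysomes. The 5 ESC markers listed were each above 1 CPM on average in every group and summed to 1522 to 2748 CPM in a library. The 4 neural markers listed were also each above 1 CPM on average in every group, and summed to 61.3 to 101.7 CPM. Of the 4 endoderm and mesoderm markers, T and Gata4 were below 1 CPM in all 4 groups and Sox17 in input Ct. Gata6 was above 1 CPM on average in every group. Of the ESC markers, 2 were lower after RAM siRNA in input, Nanog by a log2 fold change of -0.29 and Esrrb by -0.25, and 4 of 5 were lower with the replicate number as a block (12.9% and 39.3% of all genes were called in these fits). Polysome siRAM replicate 2 stood apart, with a mean correlation of 0.881 (log2 CPM) with the other 3 libraries of its group, against 0.914 or more for every other library.

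The members fall into 2 kinds by where the UGA lies in the coding region. In Gpx1, Gpx4, Selenow, Selenot, Selenof and Sephs2 it is followed by 69 or more codons. In Txnrd1, Txnrd2, Selenok and Selenoi it lies at most 10 codons from the end, and in both thioredoxin reductases only 1 codon lies between it and the stop codon. The coding sequences of 6 members around the UGA are given from the GENCODE M21 transcripts of GRCm38, 5′ to 3′ on the strand of the gene, with the selenocysteine codon in capitals. They were chosen because the polysome results below contrast them: Selenow with Selenok, whose coding regions are of like length, and the glutathione peroxidases with the thioredoxin reductases. Where a run ends soon after the capitals, the stop codon follows directly.
Selenow: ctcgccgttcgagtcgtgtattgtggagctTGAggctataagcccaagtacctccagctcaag
Selenok: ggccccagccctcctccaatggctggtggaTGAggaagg
Gpx1: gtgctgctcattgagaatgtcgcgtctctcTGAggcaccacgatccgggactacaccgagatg
Gpx4: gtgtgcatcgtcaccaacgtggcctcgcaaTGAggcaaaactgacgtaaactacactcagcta
Txnrd1: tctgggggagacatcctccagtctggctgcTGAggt
Txnrd2: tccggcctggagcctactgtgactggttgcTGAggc

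In Selenow (ENSMUSG00000041571, minus strand) the UGA is codon 13 of 88, in exon 2 of 6 at chr7:15920464-15920466. In Selenok (ENSMUSG00000042682, plus strand) it is codon 92 of 94, in exon 4 of 5 at chr14:29973440-29973442. In Gpx1 (ENSMUSG00000063856, plus strand) it is codon 47 of 201, in exon 1 of 2 at chr9:108339451-108339453. In Gpx4 (ENSMUSG00000075706, plus strand) it is codon 73 of 197, in exon 3 of 7 at chr10:80054737-80054739. The position is the same in kind for Txnrd1 (ENSMUSG00000020250, plus strand), codon 498 of 499 at chr10:82896037-82896039, and for Txnrd2 (ENSMUSG00000075704, plus strand), codon 526 of 527 at chr16:18477772-18477774. The remaining members are Selenot (ENSMUSG00000075700), with the UGA at codon 49 of 195, Selenof (ENSMUSG00000037072), at codon 93 of 162, Selenoi (ENSMUSG00000075703), at codon 388 of 398, and Sephs2 (ENSMUSG00000049091), a gene of 1 exon, at codon 63 of 452. Txnrd1 overlaps Eid3 on the same strand, and how the counting treated reads shared by both genes was not given in the sources used here.

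The first question was how abundant the mRNAs are in ESCs. Per kilobase of transcript, Gpx4 was the most abundant member in input Ct, at 298.6 ± 16.4 CPM per kb (SD, n = 4), followed by Selenof at 290.0 ± 14.5, and the ranges of these 2 genes overlapped. Gpx1, the abundant cytosolic glutathione peroxidase, had 223.2 ± 18.9 CPM per kb. Next came Sephs2, which makes the selenium donor for selenocysteine synthesis and is itself a selenoprotein, at 67.3 ± 4.76, then Txnrd1 at 54.0 ± 6.65 and Selenot at 53.8 ± 4.10 CPM per kb. Txnrd1, the cytosolic thioredoxin reductase, and Selenot, a thioredoxin-like protein of the endoplasmic reticulum (ER), overlapped in range. The lowest were Selenok at 32.1 ± 3.28, Selenoi, an enzyme of phosphatidylethanolamine synthesis, at 15.95 ± 1.197, Selenow at 9.47 ± 1.37 and the mitochondrial Txnrd2 at 7.44 ± 0.438 CPM per kb. Apart from Gpx4 with Selenof and Txnrd1 with Selenot, no 2 neighbours in this order overlapped. The order depended on the length used: with the union of all annotated exons, Gpx1 passed Selenof, Selenot and Selenok passed Txnrd1, and Selenow passed Selenoi.

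In polysomes of control cells, 5 members were at a lower level than in input and 3 at a higher level. Selenow, Gpx1, Gpx4, Selenot and Selenof were lower, Txnrd1, Txnrd2 and Selenok higher, and Selenoi and Sephs2 did not pass the test (edgeR quasi-likelihood test, adjusted p under 0.05). The log2 fold change between polysomes and input ran from -3.06 to 1.32, with a median of -0.53 for the members against 0.00 for all genes tested. Such calls were common: 67.4% of genes passed, 34.3% lower and 33.1% higher in polysomes. The same comparison with a replicate block called 72.3% of genes. The count of 8 members called is near that background, so the sizes of the differences and the positions of the members among other genes are given for each. Libraries of both fractions were scaled to a common total, so these sizes are relative to other mRNAs. They do not give the share of an mRNA that was on polysomes.

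Selenow, a small redox protein of the thioredoxin fold, had the lowest fitted polysome level relative to input. Its level was 6.98, 6.32, 6.19 and 8.39 CPM in the input Ct libraries of replicates 1 to 4 and 0.975, 1.17, 0.395 and 0.853 CPM in the polysome Ct libraries. All polysome values were below all input values. The log2 fold change was -3.06 (SE 0.25, adjusted p = 2.05e-06), and only 0.992% of the genes tested had a lower one. The polysome value rested on 7 to 22 counts per library. The log2 ratio of the same gene averaged over cultures, which adds 0.5 CPM to both levels, was -2.50 ± 0.39 (SD, n = 4) and rose to -1.66 with 2 CPM added. With 2 CPM added, Gpx1 (-1.98) and Gpx4 (-1.78) were lower than Selenow, so neither the size nor the rank of Selenow is firm.

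Gpx1 and Gpx4 followed. Gpx1 had 252.8, 260.3, 220.5 and 223.3 CPM in input Ct and 62.4, 54.4, 50.0 and 71.6 CPM in polysome Ct. Its polysome level was 0.243 of the input level, a log2 fold change of -2.04 (SE 0.14, adjusted p = 5.89e-07). Gpx4 had 293.1, 280.8, 304.1 and 267.6 CPM in input Ct, all far above the 66.1, 64.0, 89.7 and 119.5 CPM of polysome Ct. The log2 fold change of Gpx4 was -1.79 (SE 0.20, adjusted p = 1.36e-05). In neither gene did the groups overlap, and Gpx4 varied more in polysomes, with replicate 4 the highest in both polysome groups.

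Selenot and Selenof, both resident in the ER, were the other members with lower polysome levels. Selenot had 178.5, 170.5, 179.1 and 151.3 CPM in input Ct and 65.0, 67.7, 63.3 and 45.9 CPM in polysome Ct, with a log2 fold change of -1.53 (SE 0.14, adjusted p = 3.61e-06). Selenof, a partner of the ER glycoprotein folding sensor, had 447.4, 429.4, 465.0 and 414.5 CPM in input Ct and 235.1, 227.9, 305.1 and 318.7 CPM in polysome Ct. Its difference was smaller, at -0.72 (SE 0.14, adjusted p = 9.20e-04), and the groups again did not overlap. In the polysome Ct libraries of Selenof, replicates 3 and 4 lay above replicates 1 and 2.

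The members with higher polysome levels were the thioredoxin reductases, which keep thioredoxin reduced, and Selenok, an ER membrane protein. Txnrd2 had 14.9, 14.6, 14.2 and 13.001 CPM in input Ct and 40.9, 35.9, 39.1 and 29.1 CPM in polysome Ct. At 2.49 times the input level (log2 fold change 1.32, SE 0.13, adjusted p = 5.48e-06) it stood above 97.2% of all genes tested. Txnrd1 had 186.7, 191.1, 164.0 and 221.1 CPM in input Ct against 316.0, 297.9, 239.2 and 291.4 CPM in polysome Ct, a log2 fold change of 0.55 (SE 0.13, adjusted p = 0.00313). Selenok had 52.9, 55.7, 60.0 and 46.9 CPM in input Ct against 85.7, 81.5, 130.4 and 105.6 CPM in polysome Ct, and its log2 fold change was 0.87 (SE 0.16, adjusted p = 5.93e-04). In none of the 3 genes did the 2 groups overlap.

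Sephs2 and Selenoi differed in direction between cultures. Sephs2 had 137.3, 143.3, 143.9 and 161.4 CPM in input Ct and 105.5, 88.2, 100.4 and 180.9 CPM in polysome Ct, so that it was lower in polysomes in 3 of 4 cultures and higher in replicate 4. The log2 fold change was -0.33 (SE 0.20, adjusted p = 0.168). The gene passed the test with the replicate block (-0.39, adjusted p = 0.0428) and without polysome Ct replicate 4 (-0.62, adjusted p = 4.55e-04). Selenoi had 110.5, 101.4, 119.2 and 103.0 CPM in input Ct and 147.8, 132.6, 104.1 and 79.4 CPM in polysome Ct, higher in replicates 1 and 2 and lower in replicates 3 and 4. Its log2 fold change was 0.06 (SE 0.17, adjusted p = 0.777).

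**Figure D1:**
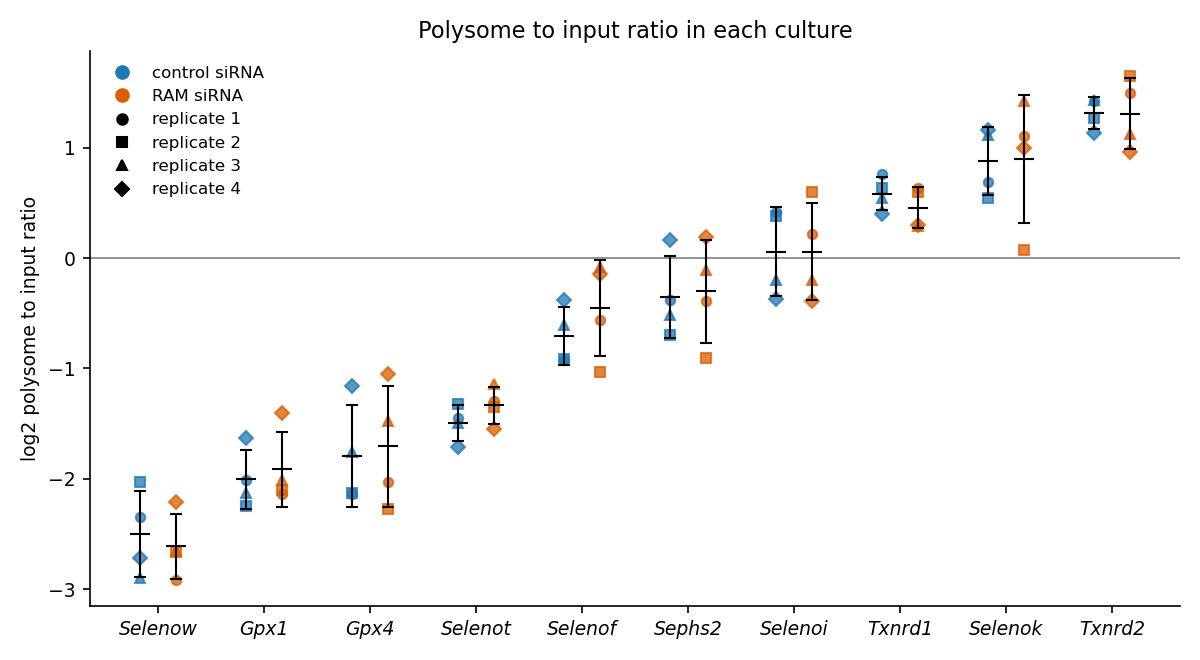
Log2 polysome to input ratio of the 10 members in each culture, from TMM-scaled CPM with 0.5 CPM added, for control siRNA (blue) and RAM siRNA (orange) cultures; symbols are replicates, and bars are mean and SD over 4 cultures. Selenow, Gpx1, Gpx4 and Selenot lie below -1 in all 8 cultures, and Txnrd1, Selenok and Txnrd2 lie above 0 in all 8.

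Per culture, the mean log2 ratios of the control cultures ordered the members as Selenow (-2.50 ± 0.39, SD), Gpx1 (-2.01 ± 0.27), Gpx4 (-1.79 ± 0.46), Selenot (-1.49 ± 0.16), Selenof (-0.71 ± 0.26), Sephs2 (-0.36 ± 0.37), Selenoi (0.06 ± 0.40), Txnrd1 (0.58 ± 0.15), Selenok (0.88 ± 0.31) and Txnrd2 (1.31 ± 0.14). Neighbours in this order overlapped in range, with 1 exception: every ratio of Selenot was below every ratio of Selenof.

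**Figure D2:**
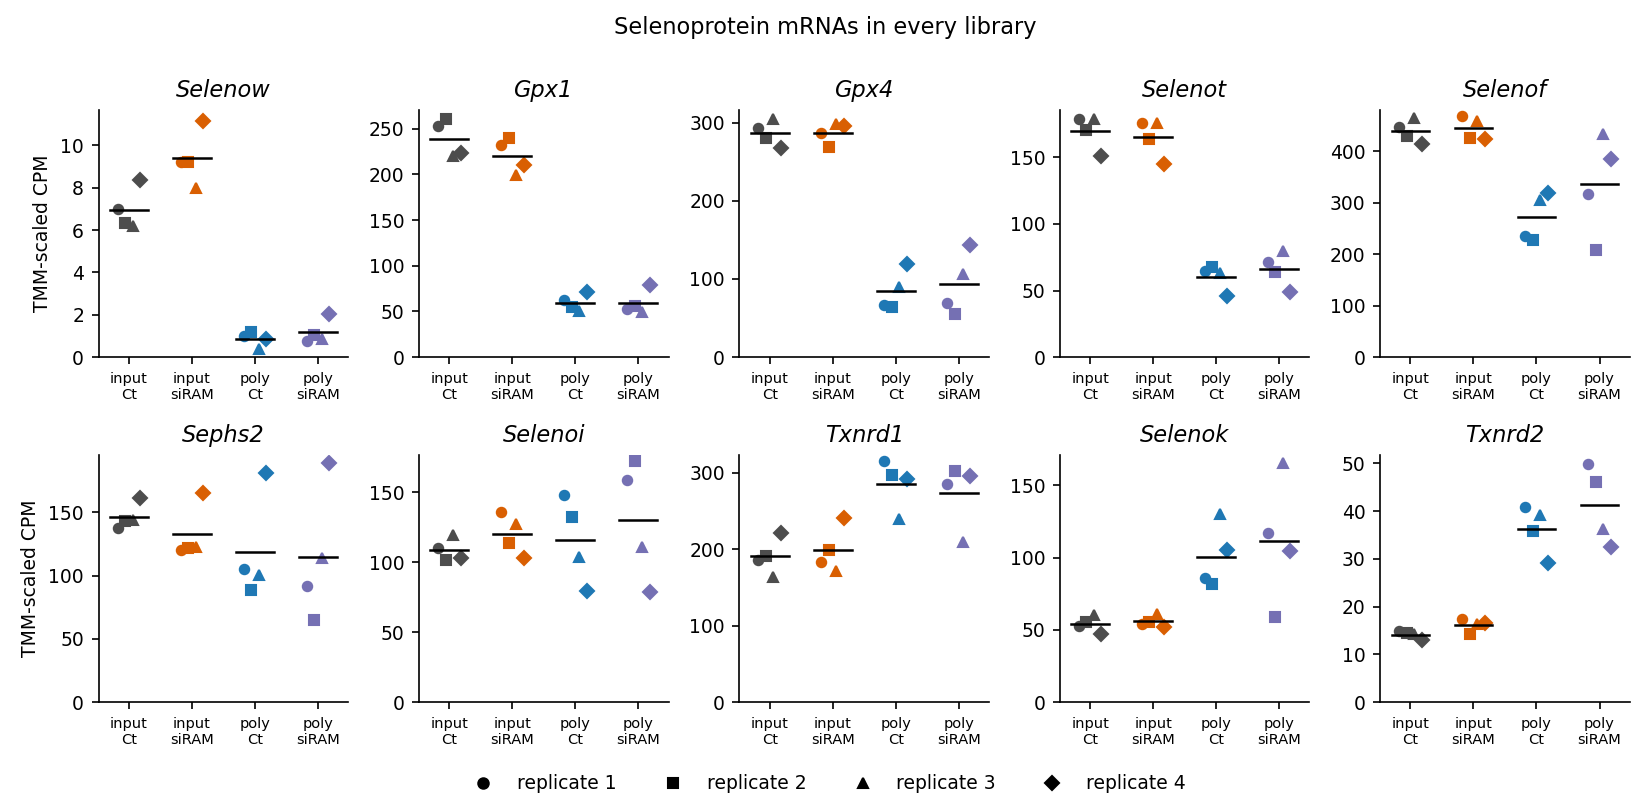
TMM-scaled CPM of each member in all 16 libraries, by group (Ct is control siRNA, siRAM is RAM siRNA, poly is polysome), with symbols for replicates and a line at the mean of 4 libraries. For Selenow, Gpx1, Gpx4 and Selenot each polysome library lies below each input library, and for Txnrd2 each lies above.

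The cells with RAM siRNA gave the same comparison again in separate cultures. Same-numbered libraries of both siRNAs deviated together from their group means, so this is not an independent repeat. Of the 10 members, 6 passed the test: Selenow, Gpx1, Gpx4 and Selenot were lower in polysomes, and Txnrd2 and Selenok were higher. Over all genes 53.3% passed, 25.9% lower and 27.3% higher, and 58.8% passed with the replicate block. Selenow was at 9.23, 9.22, 7.997 and 11.1 CPM in input siRAM and 0.784, 1.03, 0.851 and 2.02 CPM in polysome siRAM, a log2 fold change of -2.996 (SE 0.29, adjusted p = 3.09e-05). Gpx1 was at 232.1, 240.1, 199.4 and 210.9 CPM in input siRAM and 52.5, 55.5, 49.1 and 79.1 CPM in polysome siRAM, with a log2 fold change of -1.89 (SE 0.19, adjusted p = 4.00e-05). The 2 groups were separate for both genes.

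Gpx4 gave 286.5, 268.6, 297.6 and 295.8 CPM in input siRAM and 69.8, 55.2, 106.6 and 142.9 CPM in polysome siRAM, a log2 fold change of -1.60 (SE 0.29, adjusted p = 0.00114). For Selenot the log2 fold change was -1.31 (SE 0.19, adjusted p = 3.79e-04) and for Txnrd2 it was 1.36 (SE 0.17, adjusted p = 1.32e-04), and in both the groups did not overlap. Selenok had a log2 fold change of 1.02 (SE 0.28, adjusted p = 0.0117), but its groups overlapped, because polysome siRAM replicate 2 had 58.7 CPM against 117.3, 165.2 and 104.9 CPM in the other 3. Txnrd1, at 0.46 (SE 0.18, adjusted p = 0.0512), missed the threshold and passed it with the replicate block (0.47, adjusted p = 0.0333). Selenof, at -0.38 (SE 0.24, adjusted p = 0.200), was lower in polysomes in 4 of 4 cultures without passing. Without polysome siRAM replicate 2, the library that stood apart, the same 6 members passed.

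The position of the UGA was then set beside the polysome to input ratio, a feature that the choice of the members did not use. The 4 members with the UGA at most 10 codons from the end had log2 fold changes of 0.06 to 1.32 in control cells, and the 6 with an earlier UGA had -3.06 to -0.33. In RAM siRNA cells the ranges were 0.12 to 1.36 and -2.996 to -0.19. By these fitted values the 2 kinds did not overlap in either set of cultures, but single cultures did. In control replicate 4, the log2 ratio was -0.37 for Selenoi and 0.16 for Sephs2. In RAM siRNA replicate 3, Selenoi (-0.20) lay below Sephs2 (-0.11) and Selenof (-0.09). In RAM siRNA replicate 4, Selenoi (-0.39) lay below Selenof (-0.14) and Sephs2 (0.20). Selenoi and Sephs2, which border the split, did not pass the test without the replicate block in either set. Across the 10 genes, the rank correlation (Spearman's rho) between the codon number of the UGA and the log2 ratio was 0.83 on average over the control cultures (SD 0.04, range 0.77 to 0.85, n = 4 cultures) and 0.82 over the RAM siRNA cultures (SD 0.06). The genes are not independent replicates, all ratios come from the same libraries, and codon number moves with coding length, whose own rho with the ratio was 0.53 (SD 0.06). In the control cultures, rho was 0.76 (SD 0.04) for the UGA's relative position in the coding region and 0.60 (SD 0.11) for transcript length. The limit of 10 codons was chosen after the values were seen.

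**Figure D3:**
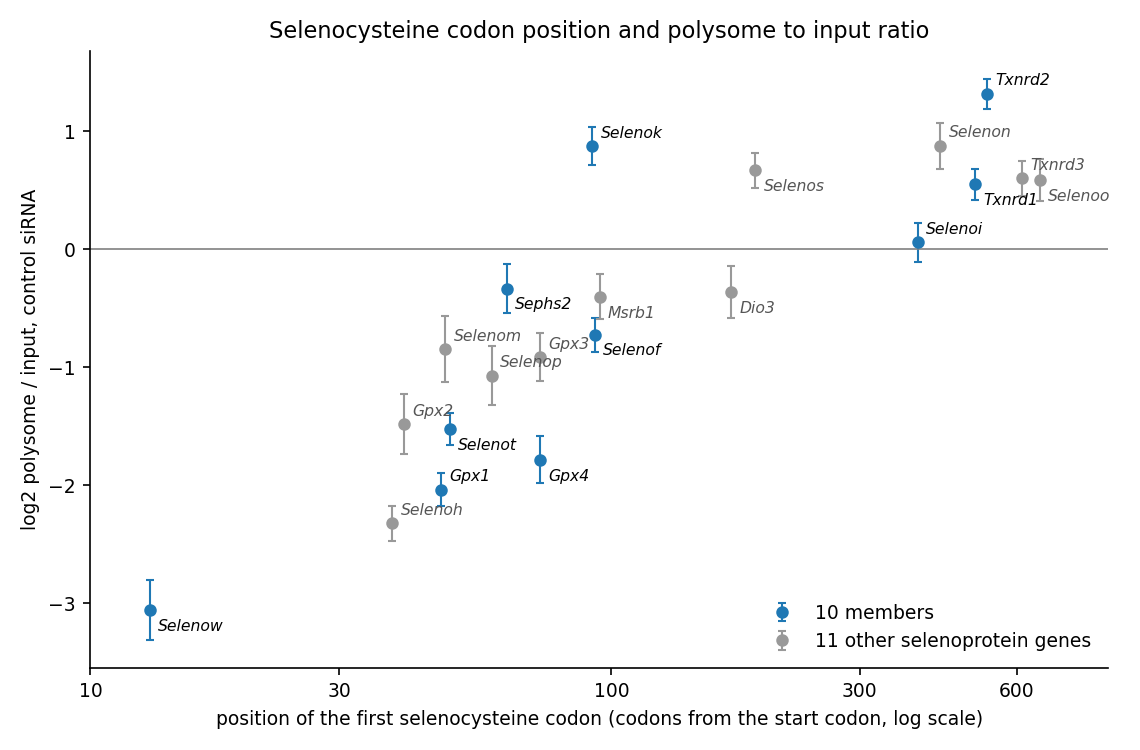
Log2 fold change between polysomes and input in control cells (edgeR, bars are the standard error) against the codon number of the first selenocysteine codon (log scale) for the 10 members (blue) and 11 other selenoprotein genes (grey). The points run from Selenow at codon 13 and -3.06 to Txnrd2 at codon 526 and 1.32, and Selenok, at codon 92 of 94, lies above Selenof, at codon 93 of 162.

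The 11 other selenoprotein genes that were tested were compared in the same way. Of these, 5 were lower in polysomes of control cells (Selenoh, Gpx2, Selenop, Gpx3 and Selenom), 4 were higher (Selenon, Selenos, Txnrd3 and Selenoo), and Dio3 and Msrb1 did not pass, but did with the replicate block (-0.37, adjusted p = 0.0290, and -0.44, adjusted p = 0.0472). The 3 with the UGA at most 2 codons from the end were all higher: Selenos, an ER protein of the degradation machinery, by a log2 fold change of 0.67 (SE 0.15, adjusted p = 0.00195), Txnrd3 by 0.60 (SE 0.15, adjusted p = 0.00401) and Selenoo by 0.59 (SE 0.18, adjusted p = 0.0122). Selenoh, a nuclear redox protein with the UGA at codon 38 of 116, had the lowest value, -2.32 (SE 0.15, adjusted p = 3.62e-07). Gpx2, an epithelial glutathione peroxidase with the UGA at codon 40 of 190, was at -1.48 (SE 0.26, adjusted p = 3.45e-04). Selenop, the plasma selenium carrier, has 10 UGA codons, the first at codon 59 of 380, and was at -1.07 (SE 0.25, adjusted p = 0.00272). Gpx3, a secreted peroxidase, was at -0.91 (SE 0.21, adjusted p = 0.00215), and Selenom was at -0.85 (SE 0.28, adjusted p = 0.0180), missing the threshold without polysome Ct replicate 1 (adjusted p = 0.0517). Selenon, an ER protein needed in muscle, has its UGA at codon 428 of 557 and was the 1 gene called higher whose UGA lies earlier than the last 10 codons, at 0.88 (SE 0.20, adjusted p = 0.00204). In RAM siRNA cells, where 53.3% of all genes were called, the same 4 genes were higher, but only Selenoh and Gpx2 were lower. Gpx3 (-0.53, adjusted p = 0.198), Selenop (-0.83, adjusted p = 0.0638), Selenom (-0.83, adjusted p = 0.0544), Dio3 and Msrb1 did not pass there. With the replicate block 4 were higher and 4 lower in these cells. Over all 21 genes the rho between codon number and log2 ratio was 0.85 (SD 0.05 over the 4 control cultures), and for coding length it was 0.52 (SD 0.10). For the UGA's relative position in the coding region it was 0.78, and for transcript length 0.57. Dio1 had 0 counts in all 16 libraries, and Dio2 and Selenov had at most 3 in any.

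Coding length was examined because it moved with the polysome to input ratio in genes of every kind. The median log2 fold change in control cells was -1.37 for the 224 tested genes with up to 100 codons, -0.43 for the 585 with up to 150, 0.03 for the 729 with up to 200, 0.39 for the 1619 with up to 300, 0.31 for the 4685 with up to 600 and -0.26 for the 4283 with more. Each member was therefore placed among the genes of its own length class. Selenow was lower than all but 1.34% of genes with up to 100 codons, and Selenok was higher than 99.6% of them, at coding lengths of 88 and 94 codons. Gpx4 and Selenot lay above only 3.57% and 6.45% of the genes with over 150 and up to 200 codons, and Gpx1 above 1.61% of the next class. Selenos, with 190 codons and its UGA 1 codon before the stop codon, lay above 79.4% of the class that holds Gpx4 and Selenot. Among the other selenoprotein genes with an earlier UGA, Selenoh lay above 2.05% of its class, Gpx2 above 7.13%, Selenop above 9.11% and Gpx3 above 12.3%. Dio3 lay above 25.7%, Selenom above 30.6%, Msrb1 above 51.3% and Selenon above 77.3%. With the UGA at most 2 codons from the end, Selenoo lay above 87.1% and Txnrd3 above 87.6%.

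The 4 larger members were placed in the class of over 300 and up to 600 codons. Txnrd2 lay above 95.8% of the class, Txnrd1 above 60.8%, Selenoi above 39.6% and Sephs2 above 26.6%. Selenof, with the UGA at codon 93 of 162, lay above 22.1% of the class of Gpx4. Thus Selenow, Gpx1, Gpx4 and Selenot were below the 10th percentile of their class and Selenok and Txnrd2 above the 90th, and the other 4 lay between.

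Relatives without selenocysteine, listed as cysteine homologs, offered a second comparison. In the glutathione peroxidases and the Msrb family they have cysteine where the selenoprotein has selenocysteine, whereas Gsr, Cept1 and Chpt1 lack the C-terminal extension that holds it. Gpx7 and Gpx8, glutathione peroxidases of the ER without selenocysteine, have 186 and 209 codons, close to the 197 of Gpx4 and the 201 of Gpx1. Both were higher in polysomes of control cells, Gpx7 by a log2 fold change of 0.72 (SE 0.16, adjusted p = 0.00209) and Gpx8 by 0.89 (SE 0.16, adjusted p = 5.61e-04). The per-culture log2 ratios of these 2 genes ran from 0.35 to 1.17 in control cultures, and those of Gpx1, Gpx2, Gpx3 and Gpx4 from -2.25 to -0.46, with no overlap. In the RAM siRNA cultures they overlapped, since Gpx7 was at -0.19 in replicate 2 and Gpx3 at 0.13 in replicate 3. In the other families the picture was mixed. Gsr, the glutathione reductase and a relative of the thioredoxin reductases, was at 0.95 (SE 0.11), beside 0.55 for Txnrd1 and 1.32 for Txnrd2. Msrb2 and Msrb3 were at 0.25 and -0.93, on either side of the selenoprotein Msrb1 at -0.40, and Cept1 and Chpt1, relatives of Selenoi, were at 1.25 and -0.54.

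**Figure D4:**
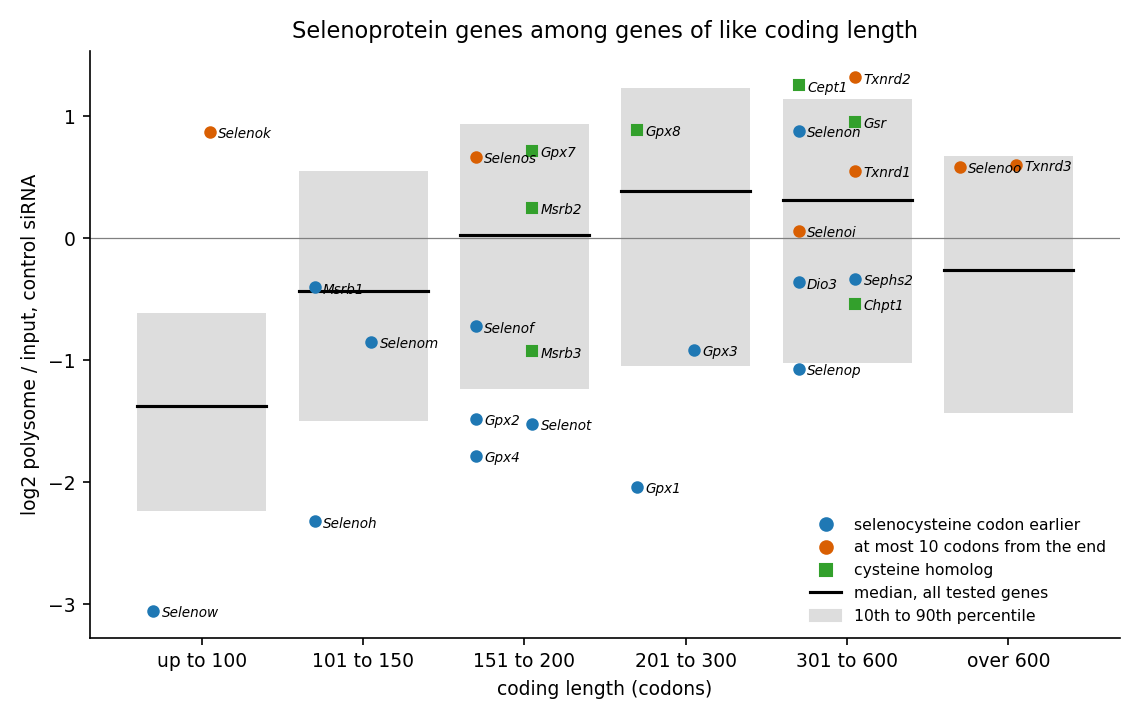
Log2 fold change between polysomes and input in control cells for 21 selenoprotein genes (circles, orange where the UGA is at most 10 codons from the end) and 7 cysteine homologs (green squares), placed by coding length; bars show the median and the 10th to 90th percentile of all tested genes of that length. Of the members, Selenow, Gpx1, Gpx4 and Selenot lie below the band of their class, and Selenok and Txnrd2 above it. Gpx2, Selenoh and Selenop also lie below it, and the homolog Cept1 lies above it.

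The effect of RAM siRNA was compared next, first in input. No member passed the test, where 12.9% of genes did. The log2 fold changes of the members ran from -0.15 to 0.43 with a median of 0.03, against 0.00 for all genes. Selenow came closest. Its input level was 6.19 to 8.39 CPM with control siRNA and 7.997 to 11.1 CPM with RAM siRNA, higher in 4 of 4 same-numbered pairs, although the groups overlapped. The log2 fold change was 0.43 (SE 0.13, adjusted p = 0.0529), and leaving out input Ct replicate 4 or input siRAM replicate 3 brought the adjusted p to 0.0326 and 0.0416. Sephs2, at -0.15 (SE 0.10, adjusted p = 0.382), passed without input siRAM replicate 4 (-0.27, adjusted p = 0.0175). In bulk RNA, fewer cells with an mRNA and less of it per cell cannot be told apart.

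Same-numbered cultures deviated together from their group means, and with this shared deviation taken out by the replicate block, 4 members passed in input, where 39.3% of all genes did. Selenow was higher with RAM siRNA (0.43, SE 0.09, adjusted p = 0.00116), as was Selenoi (0.14, SE 0.05, adjusted p = 0.0272). Gpx1 was lower in 4 of 4 pairs (-0.12, SE 0.04, adjusted p = 0.0255), and Sephs2 in 3 of 4 (-0.16, SE 0.05, adjusted p = 0.0129). The share of 4 in 10 is at the background. Gpx4, Selenof, Txnrd1, Selenok and Selenot had log2 fold changes between -0.04 and 0.06, with standard errors of 0.11 or less, and Txnrd2 had 0.19 (SE 0.09, adjusted p = 0.210). Markers of other cells moved with the siRNA too: 4 endoderm and mesoderm markers summed to 3.70 to 5.35 CPM in input Ct and 6.06 to 7.13 CPM in input siRAM, and 4 fibroblast markers to 11.99 to 14.2 and 15.0 to 18.0 CPM, with Col1a2 below 1 CPM in every group. Of the 2 testable markers in each of these lists, 1 was higher, with or without the block. The 4 neural markers summed to 71.6 to 83.6 and 77.7 to 91.9 CPM, and none of them passed without the block, whereas with it 1 was higher and 1 lower. Their part in the values of the members was not tested.

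In polysomes no member passed the test either, with or without the replicate block, where 0.0234% and 14.6% of all genes did. The log2 fold changes of the members ran from -0.02 for Txnrd1 (SE 0.16) to 0.51 for Selenow (SE 0.40), and 9 of 10 were above 0, with a median of 0.20 against 0.06 for all genes. Of all genes tested, only 42.2% lay below the smallest of these 9, Sephs2 at 0.004 (SE 0.35). Its sign was the other under 11 of 14 alternatives. The standard errors were larger than in input. Selenof had 235.1, 227.9, 305.1 and 318.7 CPM in polysome Ct and 318.0, 208.8, 433.4 and 384.7 CPM in polysome siRAM, a log2 fold change of 0.36 (SE 0.26, adjusted p = 0.817) that was positive in 3 of 4 pairs. Its lowest value came from the library that stood apart.

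**Figure D5:**
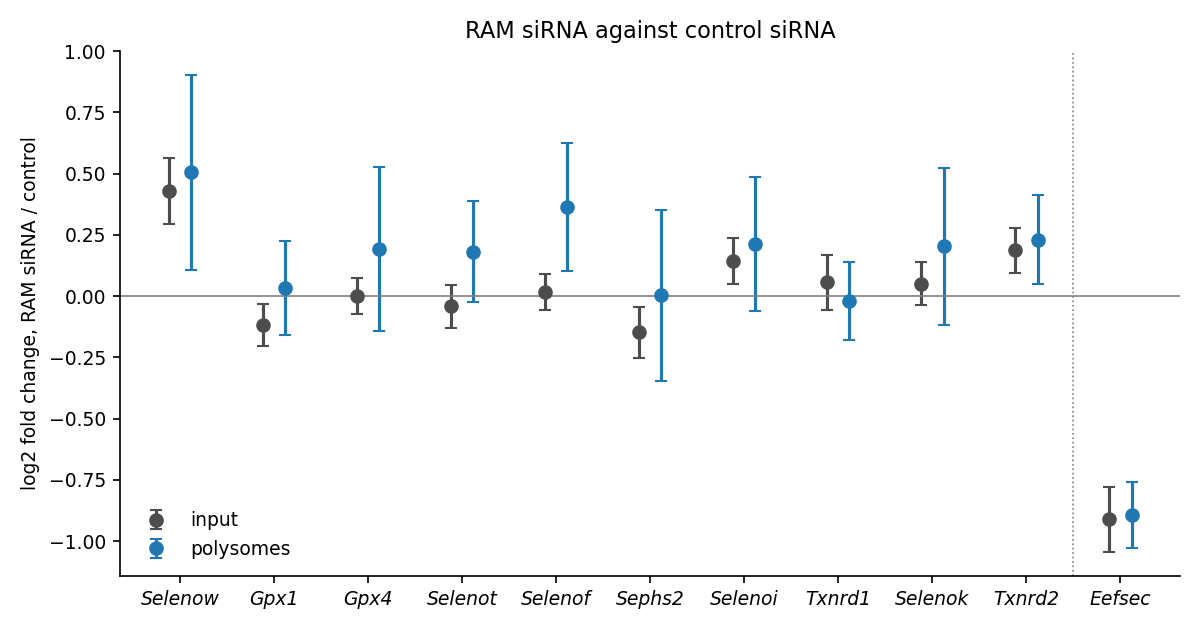
Log2 fold change between RAM siRNA and control siRNA in input (dark grey) and in polysomes (blue) for the 10 members and, right of the dotted line, for Eefsec; bars are the standard error of the edgeR fit with 4 libraries per group. The members lie between -0.15 and 0.51, and Eefsec is at -0.91 in input and -0.89 in polysomes.

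The polysome to input ratio itself was tested for a change by RAM siRNA. Libraries were scaled to a common total, so a shift shared by all mRNAs cannot be seen here or in the comparison of polysomes between siRNAs. Only changes relative to other mRNAs can be seen. The paper reports that RAM siRNA lowered the ratio of polysomes to monosomes (free ribosomes and subunits). Of all genes 0% passed, both without and with the replicate block, and DESeq2 called 1 gene. The paper, which used edgeR without naming the test, reports a change of polysome loading relative to input in only a few genes. It concludes that RAM promotes ribosome loading globally. Only 100 and 262 genes (0.781% and 2.05%) had an unadjusted p under 0.05 in the 2 edgeR fits. With no change in any gene a share of 0.05 would have it, so these fits were cautious. The lack of calls therefore does not show that the ratios stayed equal. The members' changes of the log2 ratio ran from -0.12 for Txnrd1 (SE 0.22) to 0.29 for Selenof (SE 0.26). The ratio of Txnrd1 was lower with RAM siRNA in 4 of 4 same-numbered pairs of cultures, and that of Selenof was higher in 3 of 4. The standard errors were 0.20 to 0.38 across the members. With the replicate block set within each fraction they were 0.11 to 0.26, and the change of Selenof was 0.25 (SE 0.13, adjusted p = 1.00). That fit called 2 of all genes and no member. In it 637 genes (4.97%) had an unadjusted p under 0.05, near the share given above for no change, so it was not cautious in this way.

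The machinery that makes and inserts selenocysteine was examined as a list of 11 genes, all of them tested. In input 2 were higher with RAM siRNA and 1 lower, where 12.9% of all genes were called, and the median log2 fold change was -0.12. With the replicate block 2 were higher and 4 lower, where 39.3% of all genes were called. Eefsec, the elongation factor for selenocysteine tRNA, fell in input from 367, 391, 310 and 415 counts to 194, 149, 184 and 232. The groups did not overlap, and the log2 fold change was -0.91 (SE 0.13, adjusted p = 0.00115), past the threshold under all 14 alternatives tried. In polysomes it had 527 to 703 counts with control siRNA and 307 to 345 with RAM siRNA, a log2 fold change of -0.89 (SE 0.14, adjusted p = 0.0646). Eefsec passed there with the replicate block (-0.89, adjusted p = 1.18e-04), where 14.6% of all genes did. Secisbp2, which binds the SECIS element, was higher in input by 0.26 (SE 0.07, adjusted p = 0.0293), and Sepsecs, the last enzyme of selenocysteine tRNA synthesis, by 0.30 (SE 0.08, adjusted p = 0.0297). Both passed under only 6 of the 14 alternatives.

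In polysomes of control cells, 5 of the 11 machinery genes were higher than in input and 4 lower, beside 33.1% and 34.3% of all genes. Eefsec was higher by a log2 fold change of 0.79 (SE 0.13, adjusted p = 2.39e-04), whereas Sepsecs was lower by -1.15 (SE 0.11, adjusted p = 5.90e-06) and Secisbp2 by -0.81 (SE 0.11, adjusted p = 6.09e-05). Sars, the seryl-tRNA synthetase that charges the tRNA first, was at 0.89, Scly, which recycles selenium from selenocysteine, at 0.83, and Alkbh8, which modifies the tRNA anticodon, at -0.61, all past the threshold.

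Among the other selenoprotein genes, 3 of 11 passed in input with RAM siRNA, where 12.9% of all genes did. Dio3, which inactivates thyroid hormone, was higher, with 88 to 143 counts in input Ct and 154 to 259 in input siRAM (log2 fold change 0.81, SE 0.19, adjusted p = 0.0143). Selenom, a thioredoxin-like ER protein, was higher by 0.67 (SE 0.19, adjusted p = 0.0377), and Gpx2 was lower by -0.65 (SE 0.16, adjusted p = 0.0195). With the replicate block 4 were higher and 1 lower, beside 39.3% of all genes called, Selenon (0.51, adjusted p = 2.49e-04) and Txnrd3 (0.26, adjusted p = 0.0172) being added. With all 16 libraries in 1 fit, Dio3 (adjusted p = 0.214), Gpx2 (0.548) and Selenom (0.419) all missed the threshold. Gpx2 also missed the threshold without input Ct replicate 2 (adjusted p = 0.0640) or input siRAM replicate 1 (adjusted p = 0.0649). Selenom missed it in 5 of the 8 fits that left out 1 library, with adjusted p of 0.0595 to 0.113 (without input Ct replicate 1, 2 or 4, or input siRAM replicate 2 or 4). In polysomes none of the 11 passed without the block, and with it Selenon (0.70, adjusted p = 0.00150), Dio3 (0.79, adjusted p = 0.00307) and Selenom (0.67, adjusted p = 0.0283) were higher, where 14.6% of all genes were called.

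Other genes of the redox and selenium pathways were counted as lists, beside a share over all genes of 12.9% called in input (39.3% with the replicate block). The NRF2 list shares Gclc, Gclm, Slc7a11, Srxn1 and Txn1 with the glutathione and thioredoxin list and includes the member Txnrd1. Of 18 genes of the glutathione and thioredoxin systems 1 was higher in input and none lower, with a median log2 fold change of -0.05. Of 12 genes of NRF2, the oxidative stress regulator, and its targets, 1 was higher and 1 lower (median 0.01). Of the 7 cysteine homologs 2 were higher, and of 2 selenium uptake receptors Lrp2 was higher (0.48, SE 0.13, adjusted p = 0.0300) and Lrp8 was at 0.13. None of the 5 other proteins reported to bind SECIS elements passed in input. With the replicate block the counts in input were 5 higher and 4 lower, 2 and 2, 3 and 3, 1 and 0, and 0 and 0 for these 5 lists in turn. In polysomes no gene of these lists passed without the replicate block, and with it 1, 1, 3, 1 and 0 genes did, beside 14.6% of all genes. Between polysomes and input of control cells, where 67.4% of all genes were called, 9 genes of the glutathione and thioredoxin list were higher and 5 lower, 7 and 2 of the NRF2 list, 4 and 2 of the homologs, 0 and 2 of the receptors, and 3 and 2 of the SECIS-binding proteins.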

How the data were processed

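Total RNA depleted of ribosomal RNA was sequenced in 16 stranded libraries, 4 in each of 4 groups given by the sample labels. The authors mapped reads to GRCm38 with STAR 2.5.1b and counted them per Ensembl gene with HTSeq, and they deposited whole-number counts without normalization. The strand and overlap settings of the counting are not given in the sources used here. The table held 0 columns of other samples.

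Counts were analysed with edgeR 4.0.16 in R 4.3.3. The 12805 genes that reached 1 CPM in 10 or more of the 16 libraries were scaled by TMM and tested with the quasi-likelihood F test, with Benjamini-Hochberg adjustment over all of them and a threshold of 0.05. Comparisons of 2 groups used their 8 libraries, and the change of the ratio used all 16. CPM are TMM-scaled, and ratios per culture add 0.5 CPM. The code was tested on simulated counts. Replicates were compared first: the chi-square per gene between libraries of a group was at least 4.22, so none were copies.

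The fits were repeated with the replicate number as a factor (replicate block). The study ran its experiment on 4 independent occasions, and same-numbered libraries deviated together: the correlation of deviations from the group mean was 0.400 to 0.797 for input Ct with input siRAM, 0.625 to 0.944 for the polysome groups, and 0.237 to 0.711 between fractions of the same cultures. The labels do not say that a number marks an occasion. Other alternatives were DESeq2 1.42.0, RLE and library-size scaling, no filter, all libraries in 1 fit, and each library left out.

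The members and gene lists were chosen with earlier results of these data known. Named were all members, the other selenoprotein genes tested, Ramac, and, from each other list, at most 6 genes called in any comparison, those with the smallest adjusted p first; Msrb2, T, Gata4, Col1a2, Dio1, Dio2 and Selenov were named outside this rule. Codon positions and lengths come from 1 annotated coding transcript per gene of GENCODE M21. The other genes of the series are not analysed here.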

Additional observations from a re-analysis of the deposited data

Results flagged for a closer look

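Within each of the 40 sets of 4 libraries (10 members in 4 groups), the highest and lowest library were compared with the others by Dixon's ratio. In 1 set a library stood apart: Sephs2 in input siRAM, at 165.0 CPM in replicate 4 against 120.0, 122.0 and 122.7 CPM in replicates 1 to 3. Chance gives such a gap in about 1 in 20 sets. Replicate 4 was also the highest library for Sephs2 in input Ct (161.4 CPM), polysome Ct (180.9 CPM) and polysome siRAM (189.0 CPM). Without input siRAM replicate 4, the log2 fold change of Sephs2 in input was -0.27 (edgeR quasi-likelihood test, adjusted p = 0.0175) in place of -0.15 (adjusted p = 0.382). What sets replicate 4 apart was not tested.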

How the results depend on the processing

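Calls of members in polysomes against input were stable: 8 in control cells (8 to 9 when each library was left out, 9 with the replicate block) and 6 in RAM siRNA cells (6 to 7, and 7 with the replicate block), and every member called without the block was called under all 14 alternatives. With RAM siRNA in input, 0 members were called, but 4 with the replicate block, 1 with DESeq2 (Selenow) and 0 to 1 when each library was left out. In polysomes, and for the change of the ratio, 0 members were called under every alternative. Log2 fold changes that changed sign were uncalled under both settings. In input, Gpx4 gave -8.25e-04 with RLE scaling, -0.0196 with library-size scaling, -0.0245 with no filter and -8.00e-04 with DESeq2, and Selenof gave -0.00528 with library-size scaling and -0.00945 with no filter. In polysomes, Gpx1 gave -0.0164 with library-size scaling, -0.0173 with no filter and -0.0136 with all libraries in 1 fit. There, Sephs2 gave -0.0497 with the replicate block, -0.0140 with RLE scaling and DESeq2, -0.0358 with library-size scaling, -0.0515 with no filter and -0.0478 in 1 fit. Between polysomes and input, Selenoi gave -0.0318 (control) and -0.0120 (RAM siRNA) with library-size scaling. Leaving out each library gave in input -0.0315 to 0.0318 for Gpx4, -0.0464 to 0.133 for Txnrd1, -0.0111 to 0.107 for Selenok, -0.0945 to 0.0182 for Selenot and -0.0118 to 0.0452 for Selenof. In polysomes it gave -0.152 to 0.101 for Gpx1, -0.0976 to 0.386 for Gpx4, -0.0811 to 0.0640 for Txnrd1, -0.0938 to 0.423 for Selenok and -0.357 to 0.241 for Sephs2. It gave -0.0635 to 0.196 and -0.0495 to 0.294 for Selenoi between fractions in control and RAM siRNA cells, and -0.202 to 0.0382 for the change of the ratio of Txnrd1. The replicate block changed no other call of a member than those given. The rank correlation of UGA position and ratio (0.83) stayed within its spread with another pseudocount or library-size scaling. The RAM siRNA cultures and the 21 genes, both chosen after seeing the data, also left it there. Depth limits Selenow in polysomes (7 to 34 counts per library), and 4 cultures limit the tests in polysomes.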
